A study of Drosophila melanogaster with 24 samples.

Results

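The 10 genes followed here belong to the light-signalling cascade of the fly eye and were measured across 4 rearing regimes and 2 assay temperatures in whole adult males of *Drosophila melanogaster*. The genes were *trp*, *trpl*, *inaC*, *inaD*, *Galphaq*, *Gbeta76C*, *rdgA*, *rdgC*, *Arr1* and *Arr2*. They were chosen by symbol: every probe set whose only gene symbol is one of the 10 was kept, which gave 10 of the 11982 genes with such a probe set, and 16 of the 18769 probe sets tested. For 7 genes there is 1 probe set each, 1622920_at (*trp*), 1633649_s_at (*trpl*), 1637807_at (*inaC*), 1638319_at (*inaD*), 1624519_at (*Gbeta76C*), 1636163_at (*Arr1*) and 1632111_at (*Arr2*). *Galphaq* has 3 probe sets, *rdgA* 4 and *rdgC* 2, and each of these is represented by its brightest one on average (1639773_s_at, 1641349_at and 1637386_at).

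Males of a laboratory population founded from wild-caught Danish flies were raised from egg to 6 days of age at a constant 15 °C, a constant 25 °C, or in daily cycles of 12 to 20 °C or 22 to 30 °C with those same means, all under 12 h of light a day. After 18 h at 20 °C, flies were sampled at 20 °C or after warming by 0.1 °C per minute to 35 °C. RNA was measured on 24 Affymetrix arrays, 3 per combination, in log2 GC-RMA units. Each regime was produced in 1 thermal cabinet, so regime and cabinet cannot be told apart, and the males of a regime were pooled across their rearing vials before they were split into vials of 20, so p-values measure the spread between vials drawn from 1 pool.

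In the microvillar photoreceptor, light-activated rhodopsin switches on the Gq protein, phospholipase C then splits a membrane lipid, and the TRP and TRPL channels open and let calcium in. The scaffold INAD holds channel, phospholipase and protein kinase C together in a complex called the signalplex. Arrestins, a diacylglycerol kinase and a rhodopsin phosphatase shut the response down and reset the cell.

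One array, replicate 3 of fluctuating 15 °C ramped to 35 °C, stood apart: it correlated with the other arrays at r = 0.208 to 0.216, where the others correlated among themselves at 0.969 to 0.998. It was left out, so that group has 2 arrays and 23 arrays enter the results. A further array, replicate 1 of constant 15 °C at 20 °C, carried transcripts of yolk and eggshell genes, which females make, at a median of 7.05 log2 units above the other 2 arrays of its group over 10 such genes. *Hsp68*, a heat shock gene that checks the ramp labels, read 8.14 to 8.80 at 20 °C and 13.95 to 14.19 at 35 °C. The mean log2 level of 8 eye markers lay between 6.04 and 7.04 on every array, and single markers averaged from 4.66 (*prom*) to 9.87 (*chp*). In RNA of whole flies, fewer photoreceptor cells and less RNA per cell cannot be told apart.

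Flies from fluctuating regimes carried more RNA of all 10 cascade genes than flies from constant regimes of the same mean temperature. Averaged over the 4 matched contrasts, the difference ran from 0.25 log2 units for *rdgA* to 0.58 for *Galphaq*, with a median of 0.45. As a ratio this is 1.186-fold for *rdgA* and 1.496-fold for *Galphaq*. The median over all probe sets was -0.0005. Every one of the 10 genes was higher at an adjusted p under 0.05 (limma, Benjamini-Hochberg over all probe sets), where 8.82 percent of all probe sets were higher and 6.41 percent lower, and 14 of the 16 probe sets were higher and 0 lower. Leaving out any 1 of the 23 arrays kept all 10 calls, the array with female transcripts included. With the array that stood apart put back, 1 of the 10 remained called, *rdgC*.

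**Figure D1:**
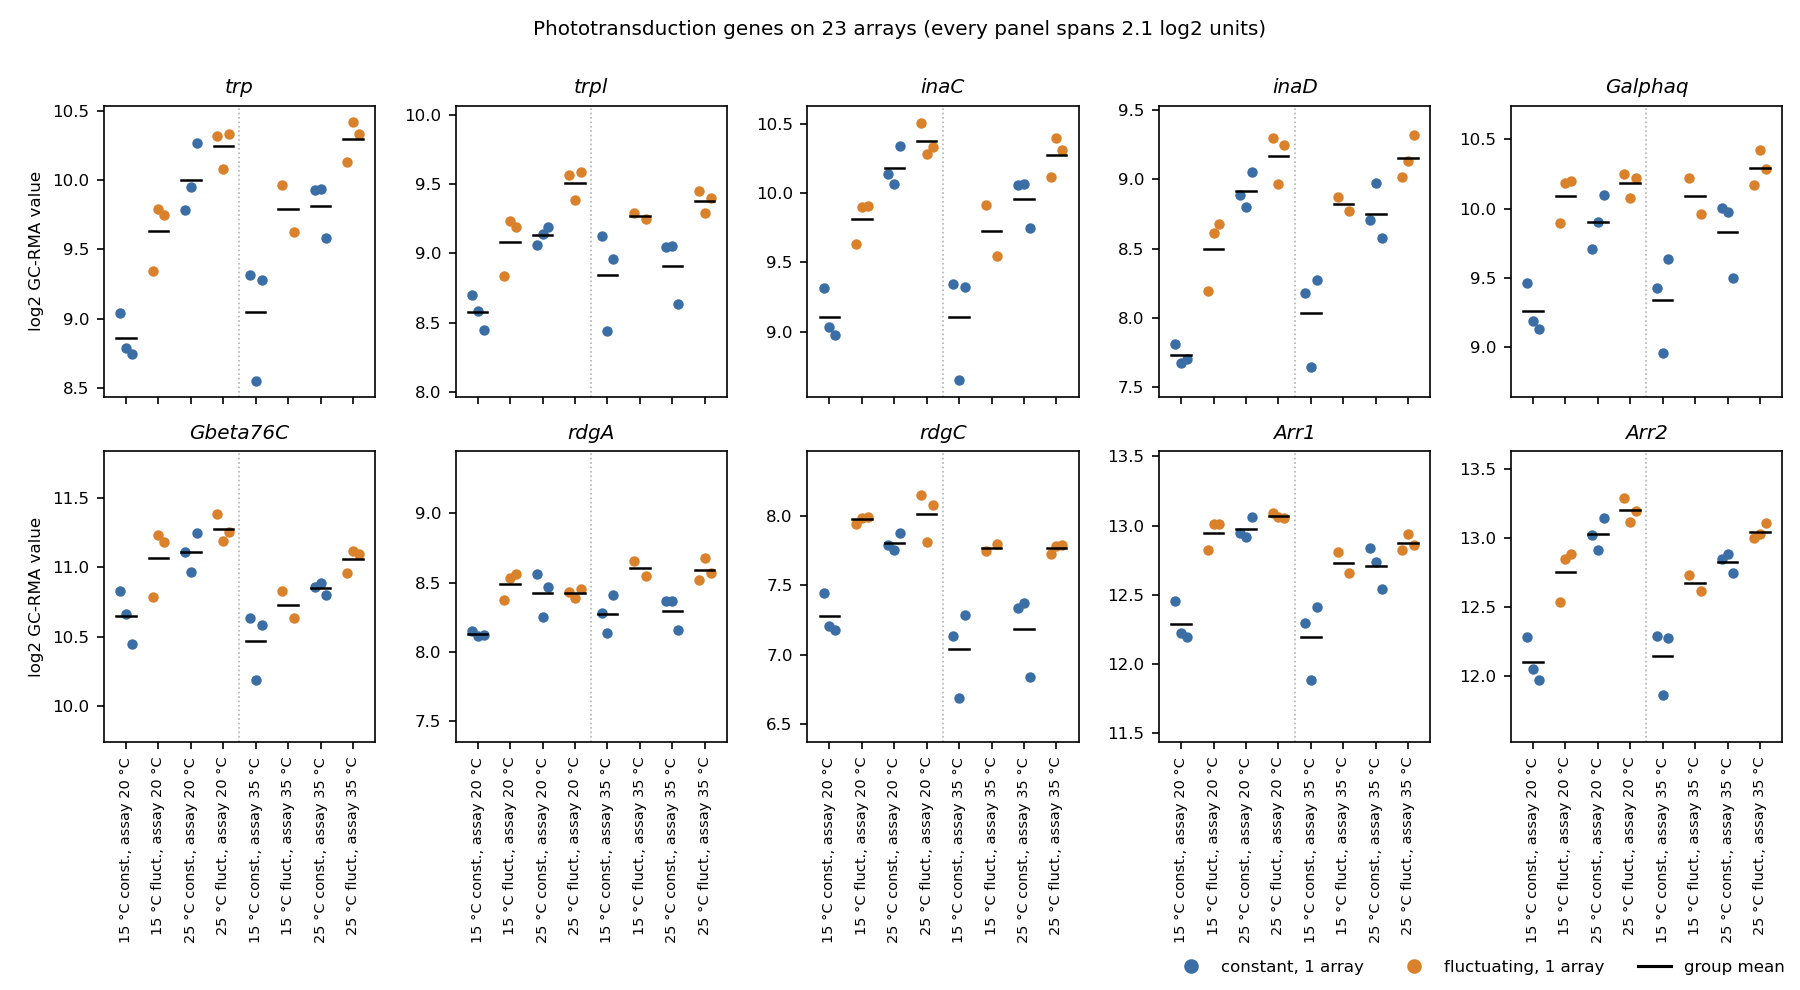
Log2 GC-RMA values of the 10 genes on 23 arrays, 1 panel per gene, with the 8 combinations of regime and assay temperature on the horizontal axis. Points are arrays, blue for constant and orange for fluctuating regimes, and bars are group means. The constant 15 °C groups hold the lowest array of each of the 10 genes.

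The 2 channels come first. *trp* encodes the main light-gated calcium channel. At 20 °C its values were 9.04, 8.79 and 8.74 in constant 15 °C and 9.34, 9.79 and 9.75 in fluctuating 15 °C, so every fluctuating array lay above every constant one. At constant 25 °C they were 9.79, 9.95 and 10.27, against 10.32, 10.08 and 10.33 in fluctuating 25 °C. Here the groups overlapped, since the highest constant array passed the lowest fluctuating one. Over the 4 contrasts *trp* was higher by 0.56 (SE 0.09, adjusted p = 0.00066).

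*trpl* encodes the second channel, which moves out of the light-sensing membrane in light. It had 8.70, 8.58 and 8.44 in constant 15 °C at 20 °C, and 8.84, 9.23 and 9.19 in fluctuating 15 °C. At 25 °C and the same assay temperature it had 9.06, 9.14 and 9.19 in the constant and 9.56, 9.38 and 9.59 in the fluctuating regime. *trpl* was the only one of the 10 genes whose groups did not overlap in any of the 4 contrasts. Its mean difference was 0.45 (SE 0.07, adjusted p = 0.00066).

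Of the signalplex, *inaD* encodes the scaffold and *inaC* the eye form of protein kinase C. *inaD* read 7.81, 7.67 and 7.70 in constant 15 °C at 20 °C and 8.19, 8.61 and 8.68 in fluctuating 15 °C. After the ramp it read 8.18, 7.64 and 8.28 in the constant regime against 8.87 and 8.77. Both pairs of groups were apart. *inaD* was higher in the fluctuating regimes by 0.55 (SE 0.08, adjusted p = 0.000182). *inaC* was higher by 0.46 (SE 0.08, adjusted p = 0.00115), with a range over both assay temperatures of 8.65 to 9.34 (median 9.17) over 6 arrays from constant 15 °C and values of 9.63, 9.90, 9.91, 9.91 and 9.54 on the 5 from fluctuating 15 °C.

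*Galphaq* encodes the alpha subunit of the Gq protein, and *Gbeta76C* its eye-specific beta subunit. On 1639773_s_at, *Galphaq* read 9.47, 9.19 and 9.13 in constant 15 °C at 20 °C and 9.90, 10.19 and 10.20 in fluctuating 15 °C. The groups were well apart. The mean difference of 0.58 (SE 0.08, adjusted p = 0.000167) was the largest of the 10. *Gbeta76C* was higher by 0.26 (SE 0.07, adjusted p = 0.0111). It was the 1 member whose groups overlapped at 15 °C at both assay temperatures: at 20 °C it read 10.83, 10.67 and 10.44 in the constant and 10.79, 11.23 and 11.18 in the fluctuating regime.

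The arrestins bind activated rhodopsin and end its signal. *Arr1* read 12.46, 12.23 and 12.19 in constant 15 °C at 20 °C and 12.82, 13.01 and 13.01 in fluctuating 15 °C. At 25 °C it read 12.95, 12.92 and 13.06 in the constant regime and 13.09, 13.06 and 13.06 in the fluctuating one. The 2 regimes were apart at 15 °C and overlapped at 25 °C. Over the 4 contrasts *Arr1* was higher by 0.36 (SE 0.06, adjusted p = 0.000426) and *Arr2*, the more abundant arrestin protein of the photoreceptor, by 0.39 (SE 0.06, adjusted p = 0.000266).

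*rdgA* encodes the diacylglycerol kinase that removes the lipid product of phospholipase C, and *rdgC* the calcium-dependent phosphatase that dephosphorylates rhodopsin. *rdgC* on 1637386_at read 7.45, 7.21 and 7.18 in constant 15 °C at 20 °C and 7.94, 7.99 and 7.99 in fluctuating 15 °C. After the ramp it read 7.33, 7.37 and 6.84 in constant 25 °C and 7.72, 7.79 and 7.79 in fluctuating 25 °C. The fluctuating arrays were close together in both and above every constant array. *rdgC* had a mean difference of 0.56 (SE 0.07, adjusted p = 8.77e-05), and *rdgA* on 1641349_at one of 0.25 (SE 0.05, adjusted p = 0.00162).

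Taken one contrast at a time, most calls fell at 15 °C. At 15 °C and 20 °C, 8 of the 10 genes were called higher, where 1.5 percent of all probe sets were, with a median difference of 0.68. After the ramp at 15 °C, 5 were called, against 1.76 percent, with a median of 0.58. At 25 °C, 0 were called at 20 °C, against 0.0586 percent, with a median of 0.20 and 1 gene, *trpl*, at an unadjusted p under 0.05, against 12.3 percent of all probe sets. At 25 °C after the ramp, *rdgC* alone was called, against 0.613 percent, with a median of 0.36 and 6 genes at an unadjusted p under 0.05, against 20.5 percent. Over the 4 contrasts the fluctuating mean was above the constant mean in all but 1 of 40 cases, *rdgA* at 25 °C and 20 °C with -0.002.

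Overlap of single arrays gave another reading. All fluctuating arrays lay above all constant arrays for 9 of the 10 genes at 15 °C at 20 °C, where this held for 11.6 percent of all probe sets, and for 9 of 10 at 15 °C after the ramp, against 18.1 percent. It held for 1 of 10, *trpl*, at 25 °C and 20 °C, against 10.1 percent, and for 9 of 10, all but *Arr1*, at 25 °C after the ramp, against 8.07 percent. The 14 calls over the 4 contrasts fell to 8 without replicate 2 of fluctuating 15 °C at 35 °C and to 9 without replicate 3 of fluctuating 15 °C at 20 °C. Fitted on the arrays of the 2 groups alone, the calls were 6, 0, 0 and 0 in the same order of contrasts.

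**Figure D2:**
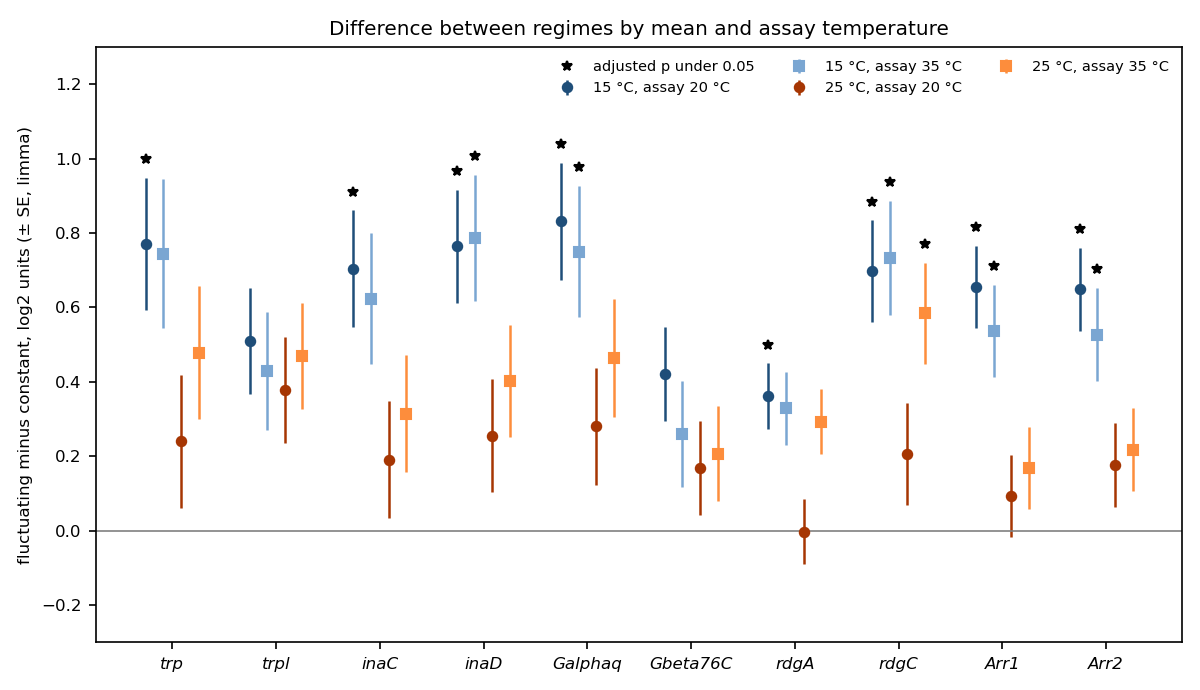
Difference between the fluctuating and the constant regime for each of the 10 genes (vertical axis, log2 units, with its limma standard error), separately for mean temperatures of 15 °C (blue) and 25 °C (orange) and assay temperatures of 20 °C (circles) and 35 °C (squares). Stars mark an adjusted p under 0.05, of which 8 are at 15 °C and 20 °C, 5 at 15 °C after the ramp and 1, for *rdgC*, at 25 °C after the ramp.

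The difference between regimes was smaller at 25 °C than at 15 °C for all 10 genes, with a median of -0.39 log2 units for the 25 °C effect minus the 15 °C effect. Over all probe sets the median of this difference of effects was -0.02, and it was positive for 8493 of 18769. Tested itself, this difference was called for *Arr1* (-0.46, SE 0.11, adjusted p = 0.0344), where 2.91 percent of all probe sets were called in either direction. For *Arr2* it was -0.39 (SE 0.12, adjusted p = 0.0657), for *inaD* -0.45 (SE 0.16, adjusted p = 0.111), and 8 of the 10 genes had an unadjusted p under 0.05, against 21.3 percent of all probe sets. *trpl*, with -0.05 (95% interval -0.35 to 0.26), and *Gbeta76C*, with -0.15 (95% interval -0.43 to 0.12), were the other two. The call for *Arr1* was lost, at an adjusted p of up to 0.0614, when any 1 of 11 arrays was left out, and *Arr2* was called without replicate 1 of constant 15 °C at 20 °C (adjusted p = 0.042) or replicate 1 of fluctuating 15 °C at 20 °C (adjusted p = 0.0413). The 11 arrays were replicates 2 and 3 of constant and of fluctuating 15 °C at 20 °C, replicates 1 and 3 of constant and 1 and 2 of fluctuating 25 °C at 20 °C, and replicates 1 and 2 of constant and 1 of fluctuating 25 °C at 35 °C.

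A difference in the effect of fluctuation between the assay temperatures was not detected. The difference between the effect at 35 °C and that at 20 °C was called for 0 of the 10 genes by limma, and 0 had an unadjusted p under 0.05. The estimates ran from -0.06 for *Gbeta76C* (95% interval -0.33 to 0.21) to 0.21 for *rdgC* (95% interval -0.09 to 0.50). Over all probe sets 0 were called and 980, or 5.22 percent, had an unadjusted p under 0.05.

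The warmer mean temperature also went with higher levels. Over the 4 matched contrasts, 9 of the 10 genes were higher at 25 °C than at 15 °C, where 28.9 percent of all probe sets were higher and 27.1 percent lower. The median difference was 0.36, against 0.0026 over all probe sets. *inaC* (0.76, SE 0.08), *trp* (0.76, SE 0.09), *inaD* (0.73, SE 0.08) and *Arr2* (0.60, SE 0.06) moved most, at 1.52-fold to 1.69-fold. *rdgA*, at 0.06 (SE 0.05, adjusted p = 0.289), was not called.

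*rdgC* on 1637386_at, at 0.18 (SE 0.07, adjusted p = 0.0388), was near the threshold. The other *rdgC* probe set, 1634061_a_at, was higher at 25 °C by 0.40 (SE 0.08, limma adjusted p = 0.000267). It moved more than 1637386_at by 0.22 (exact permutation test, adjusted p = 0.0149). The call on 1637386_at was lost, with an adjusted p of up to 0.077, when any 1 of 13 arrays was left out. At constant 15 °C these were replicates 2 and 3 at 20 °C and 2 at 35 °C, and at fluctuating 15 °C replicate 1 at 20 °C and replicates 1 and 2 at 35 °C. At constant 25 °C they were replicate 3 at 20 °C and replicates 1 and 2 at 35 °C, and at fluctuating 25 °C replicates 1 and 3 at 20 °C and 2 and 3 at 35 °C.

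By regime, the rise with mean temperature was called for all 10 genes in constant flies at 20 °C, against 22 percent of all probe sets, and for 7 in constant flies after the ramp, against 21.9 percent. In fluctuating flies it was called for 5 at 20 °C, against 17.6 percent, and for 2, *inaC* and *Arr2*, after the ramp, against 13.7 percent. Fitted on the arrays of the 2 groups alone, *Galphaq* lost its call in constant flies after the ramp (limma adjusted p = 0.0625), and in fluctuating flies after the ramp *Arr2* lost it (adjusted p = 0.0561) and *trp* gained it (adjusted p = 0.0477). *inaD* illustrates the spread. Its constant groups at 20 °C read 7.81, 7.67 and 7.70 at 15 °C and 8.89, 8.80 and 9.05 at 25 °C, a difference of 1.18 (SE 0.15, adjusted p = 4.44e-06). Its fluctuating groups after the ramp read 8.87 and 8.77 at 15 °C and 9.02, 9.13 and 9.32 at 25 °C, a difference of 0.33 (SE 0.17, adjusted p = 0.14).

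The order of the 4 regimes therefore had constant 15 °C at the bottom for all 10 genes, by the mean over arrays of both assay temperatures. Fluctuating 25 °C stood at the top for 8 genes. For *rdgA*, fluctuating 15 °C had a mean of 8.54 and fluctuating 25 °C of 8.51, and for *rdgC* both had 7.89, differences smaller than the spread between arrays. In between, fluctuating 15 °C lay below constant 25 °C for 5 genes and above it for the other 5. *trp* was one of the former, with means of 8.95, 9.70, 9.91 and 10.27 in constant 15 °C, fluctuating 15 °C, constant 25 °C and fluctuating 25 °C. These means hold 5 arrays for fluctuating 15 °C and 6 for each other regime, since 1 array at 35 °C was left out. With the 2 assay temperatures weighted equally, constant 25 °C was above fluctuating 15 °C for 6 of the 10 genes, *Arr1* among them by 0.001. For *rdgC*, fluctuating 25 °C minus fluctuating 15 °C was 0.04 at 20 °C and -0.005 after the ramp.

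The middle pair is the comparison of flies kept in a constant 25 °C with flies reared at no more than 20 °C. It was added after the values were seen. Averaged over both assay temperatures, 2 of the 10 genes were higher in constant 25 °C, *inaC* by 0.30 (SE 0.12, adjusted p = 0.0396) and *Arr2* by 0.21 (SE 0.08, adjusted p = 0.0431), where 24.7 percent of all probe sets were higher. Lower were *rdgC* by -0.38 (SE 0.10, adjusted p = 0.00377) and *rdgA* by -0.19 (SE 0.07, adjusted p = 0.0236), where 25 percent of all probe sets were lower. The other 6 were not called. *Arr1* had a difference of 0.001 (95% interval -0.17 to 0.17).

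As the mean of 4 contrasts, the share of cascade genes called with warming to 35 °C was near that of all probe sets. In single regimes a smaller share of them than of all probe sets had an unadjusted p under 0.05. Over the 4 contrasts 0 of 10 rose, where 16.2 percent of all probe sets did, and 3 fell, where 17 percent did. The 3 were *rdgC* (-0.33, SE 0.07, adjusted p = 0.00082), *Gbeta76C* (-0.25, SE 0.07, adjusted p = 0.00509) and *Arr1* (-0.19, SE 0.06, adjusted p = 0.0112). The channels had 0.06 (*trp*) and 0.02 (*trpl*). In single regimes the fall was called for 0 of 10 in constant 15 °C (8.29 percent of all probe sets), 0 in fluctuating 15 °C (5.67 percent), 1 in constant 25 °C (10.1 percent) and 0 in fluctuating 25 °C (8.87 percent), and an unadjusted p under 0.05, in either direction, was found for 0, 1, 2 and 0, against 25.3, 24.5, 28.8 and 25.7 percent.

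The single call was *rdgC* in constant 25 °C. It read 7.79, 7.75 and 7.87 at 20 °C and 7.33, 7.37 and 6.84 at 35 °C, a fall of 0.62 log2 units (SE 0.14, adjusted p = 0.00218) with no overlap. The count of calls over the 4 regimes was 4 without replicate 2 of constant 15 °C at 35 °C and 2 without replicate 1 of fluctuating 15 °C at 20 °C. The effect of the ramp at 25 °C minus that at 15 °C was called for 0 of the 10 by limma, where 1.1 percent of all probe sets were called in either direction, and 2 genes, *trpl* (-0.40, SE 0.15) and *inaD* (-0.40, SE 0.16), had an unadjusted p under 0.05, against 11 percent of all probe sets.

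**Figure D3:**
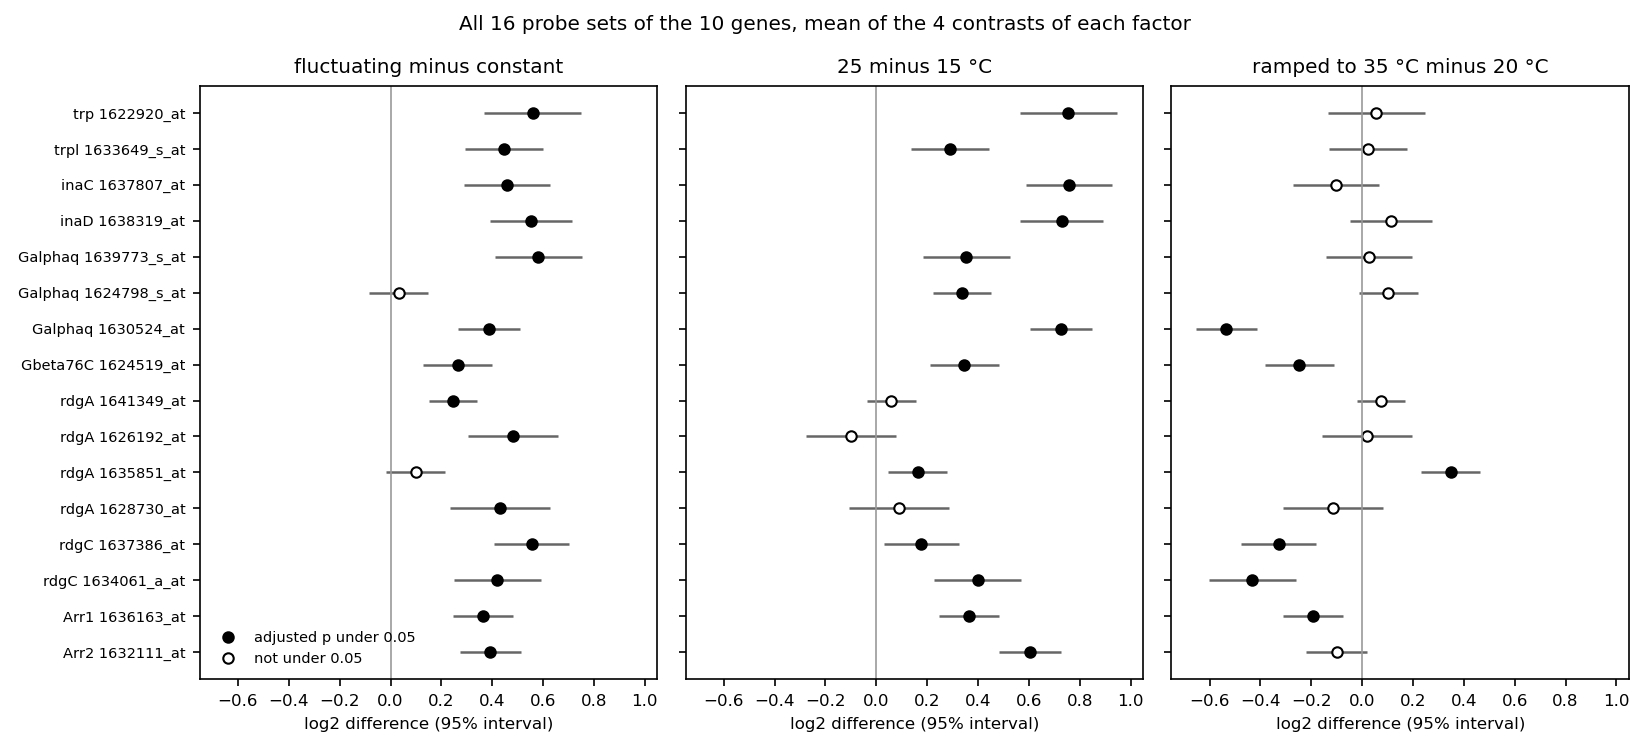
Difference with 95% interval (horizontal axis, log2 units) for each of the 16 probe sets of the 10 genes, for fluctuation (left), mean temperature (middle) and ramping (right), each the mean of 4 contrasts. Filled circles have an adjusted p under 0.05: 14 probe sets in the left panel and 13 in the middle one, all to the right of 0, and in the right panel 5 to the left of 0 and 1 to the right.

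Probe sets of the same gene did not always move together. Of the 3 for *Galphaq*, 1624798_s_at was not called for fluctuation, at 0.03 (SE 0.06, adjusted p = 0.759), and its difference from 1639773_s_at within arrays was -0.55 between regimes (exact permutation test, two-sided, 80000 arrangements, p = 3.75e-05, adjusted p = 0.000337 over 18 such tests). 1630524_at fell with the ramp by 0.53 (SE 0.06, adjusted p = 1.89e-07), while 1639773_s_at had 0.03. That difference was -0.56 (exact permutation test, p = 1.25e-05, the smallest the arrangements allow, adjusted p = 0.000225). 1630524_at read 6.93, 6.89 and 7.13 in constant 15 °C at 20 °C and 6.34, 6.33 and 6.51 after the ramp, with no overlap.

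For 1630524_at the fluctuation effect was also the most unequal between mean temperatures, at -0.71 (SE 0.12, adjusted p = 0.00733) for 25 °C minus 15 °C. It rose at 15 °C by 0.71 at 20 °C (adjusted p = 0.00285) and by 0.77 after the ramp (adjusted p = 0.00719). At 25 °C it was not called, with 0.10 at 20 °C (adjusted p = 0.799) and -0.04 after the ramp (adjusted p = 0.894). Its rise with mean temperature, 0.73 (SE 0.06), exceeded that of 1639773_s_at by 0.37 (exact permutation test, adjusted p = 0.00478).

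Of the 4 *rdgA* probe sets, 3 were higher in the fluctuating regimes. 1626192_at (0.48, SE 0.09) moved more than 1641349_at by 0.24 (exact permutation test, adjusted p = 0.00891), and 1628730_at (0.43, SE 0.09) by 0.19 (adjusted p = 0.0409 by the same exact test). 1635851_at was not called (0.10, SE 0.06, adjusted p = 0.248) and was the only one of the 16 probe sets to rise with the ramp, by 0.35 (SE 0.06, adjusted p = 3.44e-05). Both *rdgC* probe sets were higher under fluctuation, 1634061_a_at by 0.42 (SE 0.08, adjusted p = 0.00242). Both fell with the ramp, 1634061_a_at by 0.43 (SE 0.08, adjusted p = 0.000243). Which transcripts each probe set detects was not examined here.

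Of 35 further genes of the pathway, 22 had a probe set assigned by symbol, and the brightest on average stands for each. For fluctuation, 8 of the 22 were higher and 1 lower, with a median of 0.09, where 8.82 percent of all probe sets were higher and 6.41 percent lower. The highest were *rdgB* (0.43, SE 0.06, adjusted p = 0.000201), a lipid transfer protein that returns phosphatidylinositol to the light-sensing membrane, and *inaE* (0.42, SE 0.06, adjusted p = 0.000164), a diacylglycerol lipase. *rtp* (0.39, SE 0.07, adjusted p = 0.00137), which anchors the myosin kinase NINAC, and *dgk* (0.36, SE 0.08, adjusted p = 0.00542), a second diacylglycerol kinase, followed. The 1 gene that was lower was *CaBP1* (-0.15, SE 0.04, adjusted p = 0.0249), a protein disulfide isomerase. All 3 measured genes around the G protein effector and 2 of 5 in the lipid cycle were higher. Of 4 genes listed under response termination, the blue-light receptor *cry* among them, 0 were called by limma. An unadjusted p under 0.05 was found for 2, *stops*, which was higher (0.12, SE 0.05), and *cry*, which was lower (-0.11, SE 0.05).

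The genes that make and deliver the retinal chromophore or mature rhodopsin were mostly higher at 25 °C. Of 6 measured, 5 were higher at 25 °C, where 28.9 percent of all probe sets were, with a median of 0.40. In the fluctuating regimes 1 was higher and 1 lower, with a median of -0.03. Of all probe sets, 8.82 percent were higher and 6.41 percent lower there. *pinta*, a retinoid-binding protein of the eye's pigment cells named after its values were seen, was higher by 0.87 at 25 °C (SE 0.05, adjusted p = 8.65e-12) and had -0.03 for fluctuation (SE 0.05, adjusted p = 0.789). The only rhodopsin with an assigned probe set was *Rh7*, a minor opsin, at -0.04 for fluctuation (SE 0.07, adjusted p = 0.804). *norpA*, the phospholipase C of the cascade, and *Ggamma30A*, the third subunit of the G protein, are not analysed here.

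Markers of the eye, photoreceptor genes among them, and of other cells and tissues were read beside these values. All 8 measured markers of the eye were higher in the fluctuating regimes, with a median of 0.36, among them *chp* (0.54, SE 0.08, adjusted p = 0.000266), a photoreceptor surface protein. Of 7 pan-neuronal genes, 6 were higher, with a median of 0.29, among them *cac* (0.67, SE 0.08, adjusted p = 6.18e-05), a presynaptic calcium channel. The mean level of the 8 eye genes was 6.09 to 6.28 in constant and 6.45 to 6.78 in fluctuating 15 °C at 20 °C, and 6.61 to 6.90 and 6.87 to 6.93 at 25 °C. The cascade genes thus rose alongside these 8 eye and 6 neuronal markers, and the part of eye or nervous tissue content in their rise was not tested.

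For fluctuation, limma called 0 of 4 glial markers (1 at an unadjusted p under 0.05), 0 of 4 antennal markers (0 unadjusted) and 0 of 6 testis markers (0 unadjusted). Of 4 eye pigment genes, 1 was lower (*st*, -0.22, SE 0.04) and the others were not called. Of 6 flight muscle genes, 1 was lower and the others were not called. All 6 estimates were negative, with a median of -0.10, and 3 had an unadjusted p under 0.05. Of 10 yolk and eggshell genes, *Cp15* (0.18, SE 0.06) and *Cp18* (0.11, SE 0.03) were higher, and the other 8 had negative estimates that were not called, with a median over the 10 of -0.53. The array with female transcripts is in the constant 15 °C group. With mean temperature all 6 flight muscle and all 6 testis markers were lower at 25 °C, with medians of -1.43 and -0.43, while 7 of 8 eye markers were higher.

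**Figure D4:**
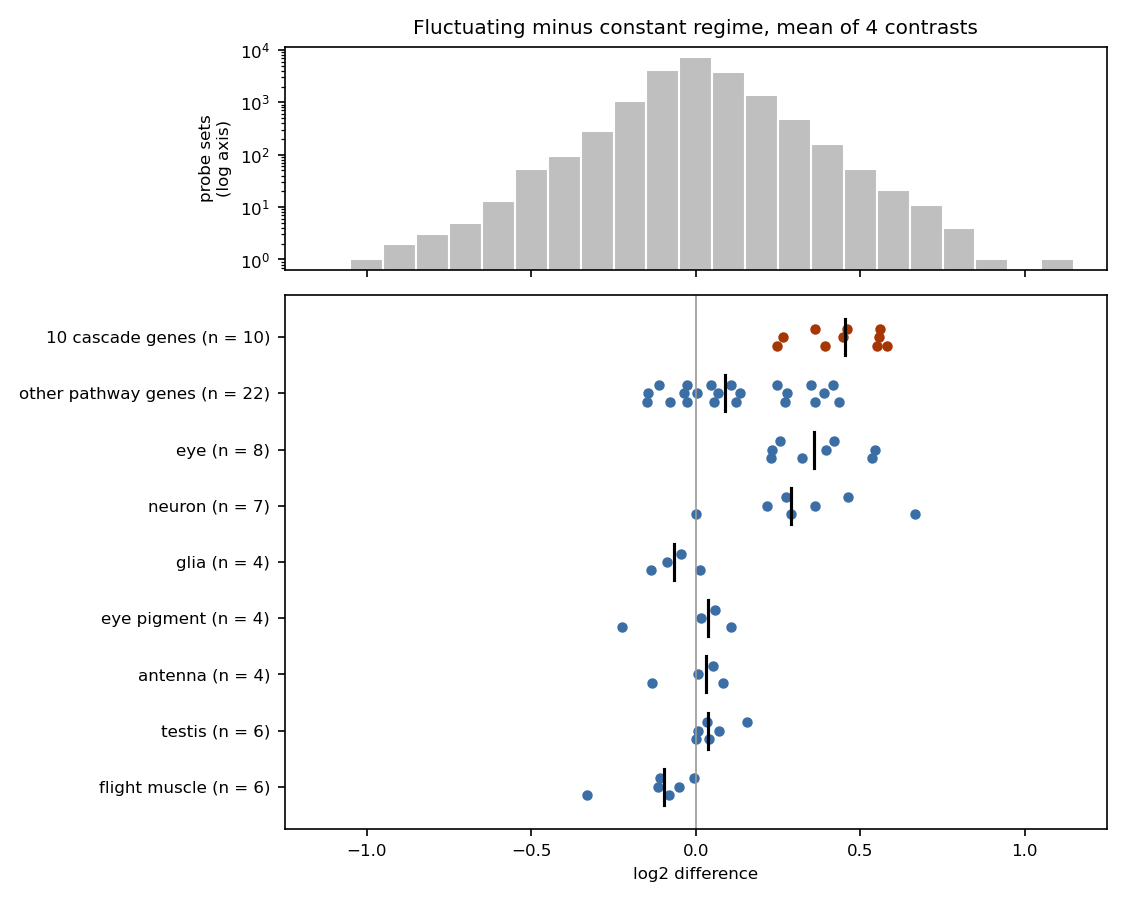
Fluctuating minus constant regime, mean of 4 contrasts, in log2 units. The upper panel counts all probe sets in bins 0.1 wide on a log axis, and in the lower panel each point is a gene and each bar a median. The 10 cascade genes (red) lie between 0.25 and 0.58, the 8 eye markers have a median of 0.36 and the 7 neuronal ones 0.29, and glia, eye pigment, antenna, testis and flight muscle have medians from -0.10 to 0.04.

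Across the 23 arrays the 10 genes rose and fell together. The 45 pairwise correlations ran from 0.58 to 0.99, with a median of 0.85, and these arrays share their regimes and their normalization. Each gene's correlation with the mean of the other members was lowest for *rdgA* (0.76) and *rdgC* (0.82) and highest for *trp* (0.96). Among 10949 other genes, those whose pattern was most like the members' mean were *PIP82* (r = 0.98), *Hdc* (0.98), *CG9813* (0.97), *rtp* (0.97), *OtopLa* (0.97), *Cpn* (0.96), *Rab3* (0.96) and *eys* (0.96). *Hdc* encodes the enzyme that makes histamine, the photoreceptor transmitter.

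The nearest genes differed among members. *Cpn*, a calcium-binding protein of photoreceptors, was among the 2 nearest for *trp*, *inaC*, *inaD* and *Arr2*, at 0.97 to 0.98. For *rdgC* they were *ChT* (0.97), a choline transporter, and *nAChRbeta1* (0.95), a subunit of the nicotinic acetylcholine receptor. For *rdgA* they were *Rdl* (0.91), a GABA receptor, and *Hr3* (0.90).

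The genes also moved together within groups, that is, between arrays of the same combination. In constant 15 °C at 20 °C, replicate 1, the array with female transcripts, was the highest of its group for all 10 genes, where it was highest for 33.4 percent of all probe sets. Replicate 2 of constant 15 °C at 35 °C was the lowest for all 10, as was replicate 1 of fluctuating 15 °C at 20 °C and replicate 3 of constant 25 °C at 35 °C, where these were lowest for 27.8, 47.2 and 36 percent of all probe sets. *Arr2* shows the size of such a gap: replicate 2 of constant 15 °C at 35 °C read 11.86 and the other 2 arrays 12.29 and 12.28. The 10 genes are thus not 10 independent measurements of a regime.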

How the data were processed

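The authors measured RNA of whole males, pooled from vials of 20 flies, on 24 Affymetrix Drosophila Genome 2.0 arrays. The deposited log2 values are GC-RMA expression levels per probe set, background-corrected, normalized and summarized by the authors with gcrma in R. Arrays have no sequencing depth, and the number of arrays limits the precision. Groups were read from the sample labels.

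Of 18952 probe sets, 183 controls were left out. Genes were named from GEO's platform annotation, by probe sets with 1 symbol (13647, for 11982 genes). An 8-group linear model without covariates was fitted to 23 arrays with limma 3.58.1 in R 4.3.3. Contrasts were adjusted by Benjamini-Hochberg over 18769 probe sets, with 0.05 as the threshold, and means of 4 contrasts came from the same fit. The script was tested on simulated data. Probe sets of 1 gene were compared by exact permutation of arrays within groups.

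The members and lists were chosen with earlier results of these data known. All member probe sets are given. Each further pathway gene and each marker is represented by its brightest probe set on average, and any other probe sets it has are not shown. Further pathway genes were named by size of the fluctuation difference, up to 4 in each direction, and likeness by Pearson correlation over 23 arrays among genes with a mean of at least 4. Other genes were named after their values were seen. Alternatives were all 24 arrays, each array left out, a replicate block, a variance trend, array weights, 2 further scalings, a filter on dim probe sets, gene means and fits to 2 groups.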

Additional observations from a re-analysis of the deposited data

Results flagged for a closer look

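Results are listed here where a test of the difference between the 2 mean temperatures passed the threshold (limma, Benjamini-Hochberg). For the *Galphaq* probe set 1630524_at, the effect of fluctuation at 25 °C minus that at 15 °C was -0.71 log2 units (SE 0.12, adjusted p = 0.00733). The fluctuating arrays at 15 °C read 7.14 to 7.86 over 5 arrays and the constant ones 6.33 to 7.13 over 6, while at 25 °C the ranges were 7.24 to 8.20 and 7.45 to 8.14. For *Arr1* the same difference was -0.46 (SE 0.11, adjusted p = 0.0344). *Arr1* ranged from 12.66 to 13.01 in fluctuating and 11.88 to 12.46 in constant 15 °C, and from 12.82 to 13.09 and 12.54 to 13.06 at 25 °C.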

How the results depend on the processing

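The 10 calls for fluctuation, as the mean of 4 contrasts, held with the same direction under every alternative run for that mean but that of all 24 arrays. Fits to 2 groups were run for single contrasts only, where fluctuation calls were 6, 0, 0 and 0 in place of 8, 5, 0 and 1. With all 24 arrays the calls over the members were 1 higher for fluctuation, 3 higher for mean temperature and 1 lower for ramping, and over single contrasts 0 for fluctuation, 1 for mean temperature and 0 for ramping, with 0 differences of effects. There *Arr1* (-0.16) and *Arr2* (-0.074) turned for fluctuation, *trp* (-0.15), *trpl* (-0.18), *inaD* (-0.13), *Galphaq* (-0.36) and *rdgA* (-0.12) for ramping, and for the fluctuation effect at 25 °C minus 15 °C *trp* (0.012), *trpl* (0.37), *inaD* (0.039), *Galphaq* (0.35), *Gbeta76C* (0.27), *rdgA* (0.19), *Arr1* (0.58) and *Arr2* (0.54). This fit adds 1 array. The count of differences of effects, 1 here, was 2 with a variance trend, with arrays centred on their median, with the mean of a gene's probe sets and without the array with female transcripts, and 4 with array weights, which also gave 3 calls for single ramp contrasts. With the mean of its probe sets *Galphaq* fell with the ramp by 0.13 (limma adjusted p = 0.0554). Leaving out 1 array at a time gave 8 to 16 calls over the single fluctuation contrasts, 1 to 4 over the ramp contrasts and 0 to 2 differences of effects, and the ramp difference of *Galphaq* ran from -0.0097 to 0.0748, that of *trpl* from -0.0104 to 0.0746, and the difference of fluctuation effects of *trpl* from -0.1155 to 0.0544. The replicate block changed no call of a member, with 2446 calls for fluctuation over all probe sets against 2858 without it. Residuals of same-numbered arrays correlated at -0.366 to 0.494 over 33 pairs, 6 of them over 0.1. The highest was between the regimes at 25 °C after the ramp, and the lowest between the constant regimes after the ramp. Differently numbered arrays were not compared, so these values cannot decide whether replicate numbers pair the arrays.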
